A study of Mus musculus with 12 samples.

Results

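The EGF receptor family and its ligands are described here across 12 libraries of mouse colon epithelium. The genes were taken by symbol: the ligands Areg, Ereg, Hbegf, Egf, Tgfa, Btc and Epgn and the receptors Egfr, Erbb2 and Erbb3, which is 10 of the 24391 genes in the files. No cut on their measured values was used, though earlier results of these data were known when the genes were chosen. RNA was sequenced from scraped colon epithelial cells of C57BL/6 mice aged 18 weeks, with 4 libraries in each of 3 groups. The curcumin group had AOM and DSS and also curcumin, a plant polyphenol, the AOM/DSS group had AOM and DSS, and the control group had neither by its label. AOM is azoxymethane, which causes tumours, and DSS is dextran sulfate sodium, which injures and inflames the colon lining; the title of the series concerns the course of colitis-accelerated colon cancer and its blockage by curcumin. All groups share the strain and the age. Per the labels' protocols the proximal colon and the tumours of the right colon were removed before scraping, so the libraries are of scraped mucosa and not of those tumours. Doses and times of the agents are not given in the sources used here, and nothing in the labels says that each library is a separate animal, so p-values measure the spread between these samples.

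The ligands are made as membrane-bound precursors, which metalloproteases cut to release the growth factor. A released ligand makes EGFR pair with itself or with a relative and signal through RAS and ERK or through PI3K and AKT. ErbB2 binds no known ligand and acts as a partner, and ErbB3 has little kinase activity of its own and passes signals to PI3K. In the intestine the family is known for driving the growth of crypt cells and the closing of wounds.

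Values are FPKM, reads per gene scaled to gene length and library depth by the authors, and differences are on the log2(FPKM + 1) scale from limma with Benjamini-Hochberg adjustment over all 12052 genes tested. Between 5567988 and 15968416 reads per library were recovered from the steps of the deposited values. Epithelial markers summed to between 5600 and 9751 FPKM in every library, and all 9 of them were found. Markers of other cells were far lower, and several were higher in AOM/DSS libraries: the 6 macrophage markers summed to 1.91 to 8.67 FPKM in curcumin, 6.88 to 20.97 in AOM/DSS and 2.29 to 8.97 in control, with Adgre1 under 1 FPKM throughout. The 6 B and plasma cell markers summed to 3.21 to 23.8 FPKM in curcumin, 15.9 to 103 in AOM/DSS and 10.1 to 35.9 in control, and the 5 T cell markers found in the files to 2.15 to 3.64, 2.71 to 13.2 and 3.21 to 4.47 FPKM in curcumin, AOM/DSS and control libraries. The 5 neutrophil markers found in the files summed to 1.139 to 1.565 FPKM in curcumin, 1.32 to 12.1 in AOM/DSS and 0.607 to 2.79 in control, with Elane at 0. The sums were 0.344 to 4.46, 2.47 to 22.5 and 0.707 to 12.4 FPKM for fibroblasts, 7.75 to 10.2, 9.64 to 23.0 and 9.01 to 19.1 FPKM for smooth muscle and 3.998 to 5.373, 1.90 to 4.69 and 3.71 to 7.26 FPKM for endothelium, each in curcumin, AOM/DSS and control libraries in that order. Mast cell markers summed to 4.98 to 10.3, 5.67 to 13.3 and 5.08 to 10.8 FPKM in the same order, most of it from 1 gene, Kit, and group 2 innate lymphoid markers to no more than 2.65 FPKM, with Il13 at 0. Libraries also differed in how they measured GC-rich genes. Replicates 0 and 1 of curcumin and of AOM/DSS, with control replicate 0, ran above the mean library for such genes and are called the GC-rich libraries, and the others the AT-rich libraries. The control group thus holds 1 GC-rich library where the other groups hold 2 each.

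The receptors Erbb3 and Erbb2 were the most abundant messages of the family and the ligands Ereg and Epgn the least. Per length, the mean levels over the 12 libraries were 82.3 FPKM for Erbb3, 69.2 for Erbb2, 25.8 for Areg, 12.1 for Tgfa, 10.2 for Hbegf, 6.08 for Egfr, 2.46 for Btc, 0.988 for Egf, 0.421 for Ereg and 0.106 for Epgn. In that order the ranges over libraries were separate only between Erbb2 and Areg, between Egfr and Btc and between Btc and Egf. Of the other neighbours, Erbb3 was above Erbb2 in 11 of 12 libraries, Areg above Tgfa in 11, Tgfa above Hbegf in 9, Hbegf above Egfr in 12, Egf above Ereg in 10 and Ereg above Epgn in 11. Thus EGFR itself, the receptor that all of these ligands bind, had the lowest level of the 3 receptor messages. Egfr made up 3.84% ± 1.00 of the receptor sum in curcumin, 5.17% ± 1.12 in AOM/DSS and 3.01% ± 0.523 in control (SD, n = 4 each). Erbb4, the remaining receptor of the family, was listed at 0 in all 12 libraries.

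**Figure D1:**
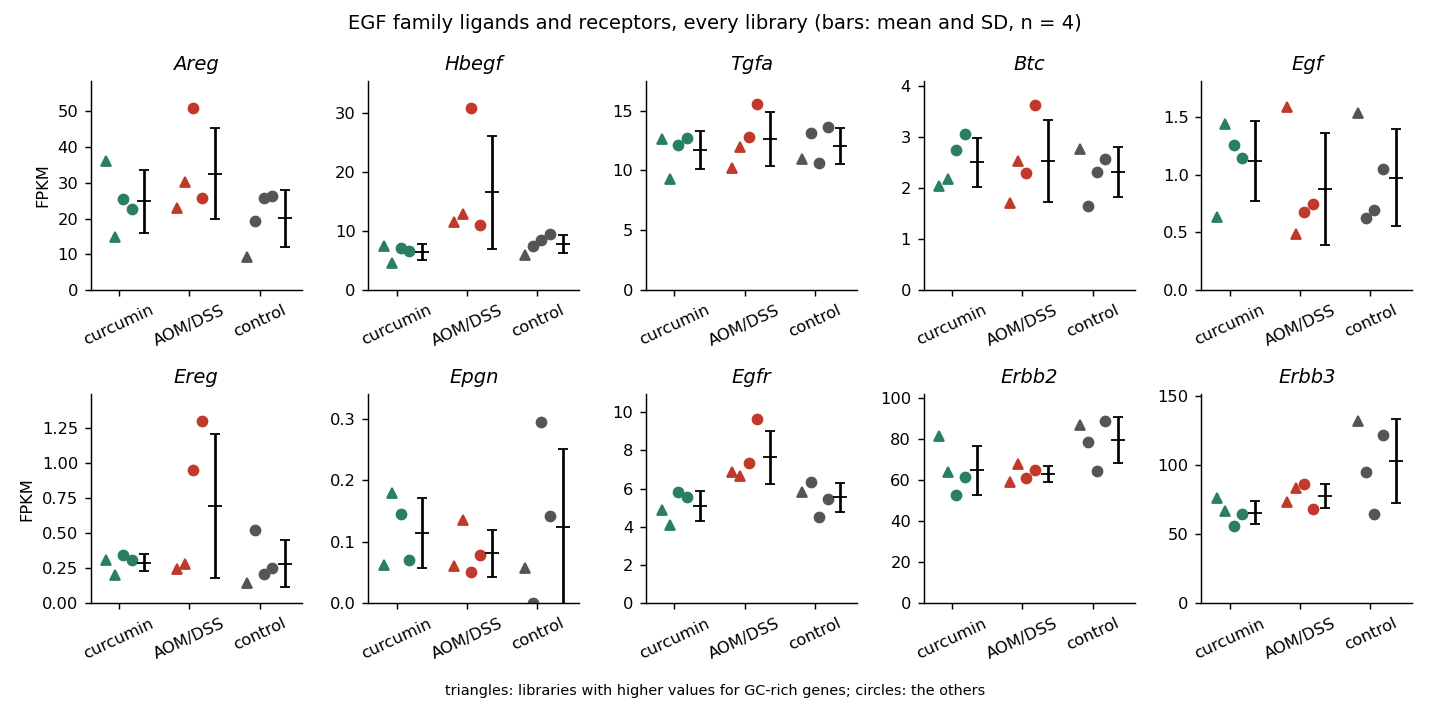
FPKM of each of the 10 genes in every library, 1 panel a gene, with curcumin, AOM/DSS and control from left to right; triangles are GC-rich libraries, circles the others, and bars the mean and SD (n = 4), cut at 0. All 4 AOM/DSS libraries lie above the other 8 for Hbegf and for Egfr, while Tgfa lies between 9.32 and 15.6 FPKM in all 12.

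Promoter windows from RefSeq, on build GRCm38.p6, could be matched to 7 of the 10 genes, and 3 are shown: Areg and Tgfa, the 2 most abundant ligand messages, which varied differently between libraries, and Egfr. The coefficient of variation over the 12 libraries was 40.9% for Areg, 13.9% for Tgfa and 24.3% for Egfr. Each window is written 5′ to 3′ on the strand of the gene, from 250 bases before the start to 50 after it, and capitals mark the motifs found. The windows are chr5:91139349-91139648 on the plus strand for Areg, chr6:86194972-86195271 on the plus strand for Tgfa and chr11:16751953-16752252 on the plus strand for Egfr.
Areg: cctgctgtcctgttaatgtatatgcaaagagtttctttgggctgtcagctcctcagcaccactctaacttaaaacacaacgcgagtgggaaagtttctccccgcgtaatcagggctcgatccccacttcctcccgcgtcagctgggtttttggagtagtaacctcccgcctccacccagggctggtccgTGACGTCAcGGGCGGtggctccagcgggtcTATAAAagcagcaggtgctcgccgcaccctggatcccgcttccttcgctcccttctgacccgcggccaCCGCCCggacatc
Tgfa: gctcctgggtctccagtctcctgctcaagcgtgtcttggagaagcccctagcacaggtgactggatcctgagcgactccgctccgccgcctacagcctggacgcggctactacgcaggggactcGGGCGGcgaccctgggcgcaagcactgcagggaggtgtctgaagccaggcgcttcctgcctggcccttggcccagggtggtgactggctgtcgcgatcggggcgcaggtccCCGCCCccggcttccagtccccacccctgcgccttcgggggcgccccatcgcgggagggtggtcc
Egfr: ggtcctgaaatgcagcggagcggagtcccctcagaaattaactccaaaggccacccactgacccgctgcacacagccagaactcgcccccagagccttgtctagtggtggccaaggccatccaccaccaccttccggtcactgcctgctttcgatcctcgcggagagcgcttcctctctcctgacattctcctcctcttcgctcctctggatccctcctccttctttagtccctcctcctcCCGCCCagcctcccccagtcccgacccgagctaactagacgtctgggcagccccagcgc
Both strands were searched for the CRE TGACGTCA, the AP-1 motif TGANTCA, the TATA box TATAAA, the GC box GGGCGG and the CArG box. The Areg window held a CRE at -61 to -54 from the start, a TATA box at -31 to -26 and GC boxes at -52 to -47 and 37 to 42. Tgfa held GC boxes at -126 to -121 and -15 to -10, and Egfr held a GC box at -9 to -4. Of the windows of the 7 genes, the CRE was found in Areg only, and among all 32851 windows of the same length 1.79% held it. The shares of all windows were 13.6% for the TATA box, 35.7% for the GC box, 7.81% for AP-1 and 1.63% for the CArG box, and no window of the 7 genes held either of the last pair. On chromosome 5 the coding genes Epgn, Ereg, Areg and Btc follow one another in this order, and their mean levels ran from 0.106 to 25.8 FPKM.

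Hbegf, a heparin-binding ligand of EGFR and ErbB4, had the largest fitted differences of the 8 tested genes for curcumin minus AOM/DSS and for AOM/DSS minus control. It had 7.47, 4.53, 7.02 and 6.62 FPKM in curcumin replicates 0 to 3, 11.5, 12.9, 30.8 and 10.996 FPKM in AOM/DSS and 5.85, 7.38, 8.46 and 9.52 FPKM in control. Every AOM/DSS library was above every curcumin and every control library, while curcumin and control overlapped. The log2 difference was -1.13 ± 0.27 for curcumin minus AOM/DSS (SE, 95% interval -1.72 to -0.54, limma adjusted p = 0.0694) and 0.88 ± 0.27 for AOM/DSS minus control (0.29 to 1.48, adjusted p = 0.157), so neither passed the threshold of 0.05. For curcumin minus control it was -0.25 ± 0.27 (-0.84 to 0.34, adjusted p = 0.757). The first pair of comparisons share the 4 AOM/DSS libraries and are not independent of each other. AOM/DSS replicate 2 was far above the rest of its group. Without it the differences were -0.80 for curcumin minus AOM/DSS and 0.55 for AOM/DSS minus control, and over all alternatives the adjusted p ran from 0.0374 to 0.392 and from 0.0714 to 0.562. Within the GC-rich libraries alone they were -0.94 and 0.94, and within the AT-rich libraries alone -1.32 and 1.05, while curcumin minus control was -0.0024 and -0.27 in these sets. In such bulk samples fewer cells of a type and less RNA per cell cannot be told apart. AOM/DSS replicate 2 also had the highest B and plasma cell and T cell marker sums (103 and 13.2 FPKM). Its macrophage marker sum, 14.4 FPKM, was above all curcumin and control libraries and below that of AOM/DSS replicate 3, 20.97 FPKM. The part of these cell types in the Hbegf values was not tested.

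Areg, amphiregulin, a low-affinity EGFR ligand, was the most abundant ligand message and made up 51.8% ± 6.72 of the summed ligand FPKM in curcumin, 48.9% ± 3.61 in AOM/DSS and 44.4% ± 10.1 in control (SD, n = 4 each). It had 36.3, 14.9, 25.5 and 22.7 FPKM in curcumin replicates 0 to 3, 23.0, 30.4, 51.1 and 25.7 FPKM in AOM/DSS and 9.16, 19.2, 25.7 and 26.2 FPKM in control. The 3 groups overlapped, with the highest value in AOM/DSS replicate 2 and the lowest in control replicate 0. No comparison passed: the differences were -0.37 ± 0.34 for curcumin minus AOM/DSS (SE, limma adjusted p = 0.683), 0.70 ± 0.34 for AOM/DSS minus control (adjusted p = 0.396) and 0.33 ± 0.34 for curcumin minus control (adjusted p = 0.737). A single library moved these values by more than 1.5 times: AOM/DSS minus control was 0.39 without control replicate 0, and curcumin minus AOM/DSS was -0.14 without AOM/DSS replicate 2. Within the GC-rich libraries, which hold 1 control, AOM/DSS minus control was 1.43, against 0.61 within the AT-rich libraries, and curcumin minus AOM/DSS was -0.18, against -0.57. Curcumin minus control was 1.26 within the GC-rich and 0.034 within the AT-rich libraries, and 0.011 without control replicate 0.

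Tgfa, transforming growth factor alpha, another EGFR ligand, differed little between groups. It had 12.6, 9.32, 12.2 and 12.7 FPKM in curcumin replicates 0 to 3, 10.2, 11.9, 12.8 and 15.6 FPKM in AOM/DSS and 10.9, 13.1, 10.6 and 13.6 FPKM in control. The groups overlapped throughout. The differences were -0.10 (95% interval -0.41 to 0.21) for curcumin minus AOM/DSS, 0.05 (-0.26 to 0.37) for AOM/DSS minus control and -0.04 (-0.36 to 0.27) for curcumin minus control. Btc, betacellulin, a ligand of EGFR and ErbB4, averaged 2.51 ± 0.482 FPKM in curcumin, 2.54 ± 0.807 in AOM/DSS and 2.33 ± 0.492 in control (SD, n = 4 each), and its groups overlapped too. Egf, the ligand that names the family, averaged 1.12 ± 0.348 FPKM in curcumin, 0.873 ± 0.487 in AOM/DSS and 0.974 ± 0.417 in control, from 281, 184 and 198 recovered reads over the 4 libraries of each group. In GRCm38 9.82% of its exon bases are shared with genes on the opposite strand, and the strand setting of the counting is not given in the sources used here.

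The remaining ligands were near the limit of the depth and did not enter the test. Ereg, epiregulin, a ligand of EGFR and ErbB4, had 0.310, 0.198, 0.345 and 0.306 FPKM in curcumin replicates 0 to 3, 0.246, 0.279, 0.948 and 1.30 FPKM in AOM/DSS and 0.141, 0.524, 0.208 and 0.253 FPKM in control. AOM/DSS replicates 2 and 3, with 45 and 80 reads, stood above all other libraries, which had 6 to 23 reads, while AOM/DSS replicates 0 and 1 lay among them. A fit of all genes above 0 gave -0.34 for curcumin minus AOM/DSS (limma adjusted p = 0.453) and 0.36 for AOM/DSS minus control (adjusted p = 0.486). Epgn, epigen, an EGFR ligand, had between 0 and 7 reads per library. It was listed at 0 in control replicate 1, where a count of 0 allows up to 0.347 FPKM, a floor of 3 reads that covers counting error only.

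The summed ligand level was 47.0 ± 11.002 FPKM in curcumin, 65.9 ± 22.4 in AOM/DSS and 43.7 ± 9.89 in control (SD, n = 4 each). Hbegf made up 13.7% ± 0.789 of it in curcumin (12.6% to 14.3%), 24.0% ± 5.22 in AOM/DSS (18.9% to 31.2%) and 18.0% ± 0.854 in control (17.4% to 19.2%). The curcumin libraries lay below all 8 others in this share, while the AOM/DSS and control ranges overlapped. Tgfa made up 25.4% ± 3.21, 20.3% ± 5.67 and 28.6% ± 6.08 of the ligand sum in curcumin, AOM/DSS and control libraries. These shares are descriptions and carry no test.

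**Figure D2:**
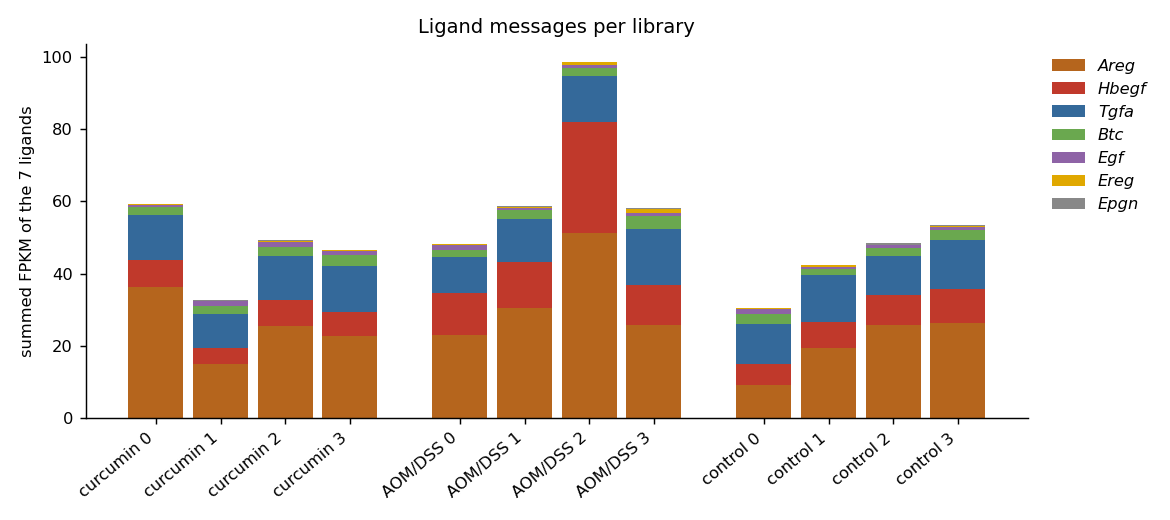
Ligand FPKM of each library, stacked by gene, with the curcumin, AOM/DSS and control libraries from left to right. The part of Areg is larger than that of Tgfa in 11 of 12 bars, and AOM/DSS replicate 2 has the tallest bar, at 98.7 FPKM.

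Egfr was the receptor whose AOM/DSS libraries all lay above the other groups. It had 4.88, 4.10, 5.83 and 5.54 FPKM in curcumin replicates 0 to 3, 6.85, 6.66, 7.34 and 9.66 FPKM in AOM/DSS and 5.81, 6.33, 4.52 and 5.46 FPKM in control. The lowest AOM/DSS library was above all curcumin and control libraries, though only just above control replicate 1. The difference was -0.50 ± 0.14 for curcumin minus AOM/DSS (SE, 95% interval -0.81 to -0.19, limma adjusted p = 0.129), 0.40 ± 0.14 for AOM/DSS minus control (0.09 to 0.71, adjusted p = 0.238) and -0.10 ± 0.14 for curcumin minus control (-0.41 to 0.21, adjusted p = 0.814), none past the threshold. The AOM/DSS library with the most Egfr, replicate 3, had the highest macrophage, fibroblast and smooth muscle marker sums, at 20.97, 22.5 and 23.0 FPKM. The part of those cells in the Egfr values was not tested. Without AOM/DSS replicate 3 the differences were -0.39 for curcumin minus AOM/DSS and 0.29 for AOM/DSS minus control. Within the GC-rich libraries alone the differences were -0.50 for curcumin minus AOM/DSS and 0.19 for AOM/DSS minus control, against -0.50 and 0.56 within the AT-rich libraries, and curcumin minus control was -0.31 in the GC-rich set and 0.063 in the AT-rich set.

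Erbb2 and Erbb3, the abundant receptors, had their highest values in control libraries. Erbb3 had 76.0, 66.5, 55.7 and 64.6 FPKM in curcumin replicates 0 to 3, 73.5, 83.7, 86.3 and 68.0 FPKM in AOM/DSS and 132, 94.9, 64.3 and 122 FPKM in control. All but 1 of the control libraries were above every other library, and control replicate 2 lay among them. The difference was -0.24 ± 0.20 for curcumin minus AOM/DSS (SE, limma adjusted p = 0.627), -0.36 ± 0.20 for AOM/DSS minus control (adjusted p = 0.462) and -0.60 ± 0.20 for curcumin minus control (95% interval -1.03 to -0.18, adjusted p = 0.238). Within the GC-rich libraries, with their single control, these were -0.14, -0.75 and -0.89, and within the AT-rich libraries -0.35, -0.24 and -0.59. Without control replicate 0, AOM/DSS minus control was -0.22, and without control replicate 2 it was -0.57. Erbb2 had 81.3, 63.9, 52.8 and 61.6 FPKM in curcumin replicates 0 to 3, 58.9, 67.7, 60.9 and 64.7 FPKM in AOM/DSS and 86.9, 78.8, 64.3 and 88.6 FPKM in control. Its curcumin and control groups overlapped, and so did AOM/DSS and control through control replicate 2. The differences were 0.03 ± 0.14 (adjusted p = 0.962), -0.32 ± 0.14 (adjusted p = 0.339) and -0.30 ± 0.14 (adjusted p = 0.426) for curcumin minus AOM/DSS, AOM/DSS minus control and curcumin minus control, and the first turned negative under common-sum and quantile scaling (-0.04 and -0.02) and within the AT-rich libraries (-0.14, against 0.19 within the GC-rich libraries). The ratio of Erbb3 to Erbb2 was 1.02 ± 0.057 in curcumin, 1.24 ± 0.15 in AOM/DSS and 1.28 ± 0.23 in control (SD, n = 4 each).

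**Figure D3:**
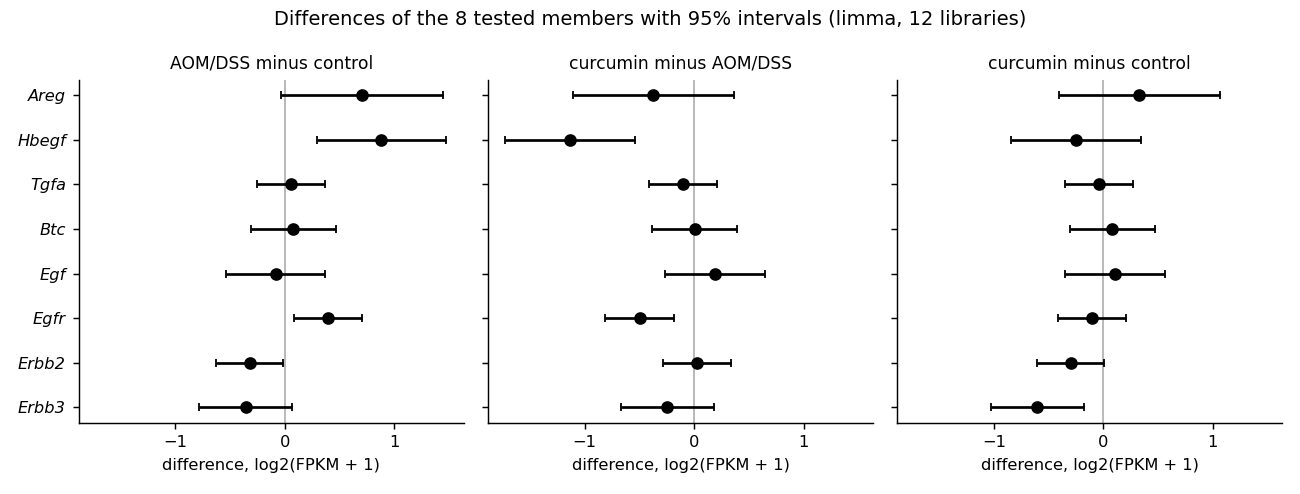
Differences of the 8 tested genes on the log2(FPKM + 1) scale with 95% intervals from limma, 1 panel for each comparison. The intervals of Hbegf and Egfr lie off 0 in AOM/DSS minus control and in curcumin minus AOM/DSS, that of Erbb2 in AOM/DSS minus control and that of Erbb3 in curcumin minus control, and no adjusted p is below 0.05.

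Counted over the family, 0 of the 8 tested genes passed the threshold in each of the 3 comparisons, by limma on FPKM and by limma voom on the recovered reads. Of all 12052 genes, 1.08% passed for curcumin minus AOM/DSS, 1.27% for AOM/DSS minus control and 0.141% for curcumin minus control, and by voom 1.15%, 1.4% and 0.183%. At an unadjusted p below 0.05 there were 2 of 8 genes (Hbegf and Egfr, both lower) for curcumin minus AOM/DSS, against 14.5% of all genes. For AOM/DSS minus control there were 3 (Hbegf and Egfr higher, Erbb2 lower), against 13.5%, and for curcumin minus control 1 (Erbb3, lower), against 12.2%. Hbegf and Egfr, 2 of 8, were lower without overlap of the groups in curcumin minus AOM/DSS, beside 4.27% of all genes. The same 2 were higher without overlap in AOM/DSS minus control, beside 2.38%. These shares count only the direction that the 2 genes took, and shares for both directions together would be at least as large. For curcumin minus control, counted in both directions, the groups overlapped for all 8 tested genes, while they did not for 8.26% of all genes. AOM/DSS lay above all 8 other libraries for the same 2 genes and for 0.921% of all genes tested. This share too counts only the direction that the 2 genes took, and one for both directions would be at least as large. The median difference of the 8 genes was -0.17 for curcumin minus AOM/DSS, 0.06 for AOM/DSS minus control and -0.07 for curcumin minus control, beside -0.01, 0.02 and 0.01 over all genes.

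Across the 12 libraries some members varied together. These values are descriptions over libraries that share groups and differ in depth. Pearson's r of log2 levels was 0.84 for Erbb2 with Erbb3 and 0.80 within groups. It was 0.75 for Areg with Hbegf and 0.83 within groups, and 0.64 for Tgfa with Egfr and 0.78 within groups. For Hbegf with Egfr it was 0.60 over all libraries and -0.04 within groups, so these 2 genes were both high in AOM/DSS without varying together inside a group. Areg and Egf ran in opposite ways, at -0.64 and -0.69. The tested genes most like Hbegf over the 12 libraries were Ctse, cathepsin E (r = 0.91), Fos, a transcription factor of the immediate early response (r = 0.90), and Ly86 (r = 0.89). Those most like Egfr were Itga2, an integrin subunit (r = 0.93), Ifi47 (r = 0.90) and Nfil3 (r = 0.89). Areg was most like Gpsm2 (r = 0.88), Tgfa like Itgav (r = 0.94), Btc like B3glct (r = 0.84), Egf like Glt1d1 (r = 0.91), Erbb2 like Ksr1 (r = 0.92) and Erbb3 like Trio (r = 0.95).

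Of the other genes of the pathway, few passed the test, and so did few of all genes. The shares over all genes were 1.08% for curcumin minus AOM/DSS, 1.27% for AOM/DSS minus control and 0.141% for curcumin minus control. At such shares a short list without a gene past the threshold does not set the pathway apart. Among the neuregulins, which bind ErbB4 and only in part also ErbB3, only Nrg4 was high enough to test. It had 1.37 ± 0.244 FPKM in curcumin and 1.28 ± 0.307 in control, and it passed in no comparison. Of 6 genes for ligand shedding 5 were tested and none passed. Adam17, the main protease for several EGFR ligands, averaged 7.64 ± 0.884 FPKM in curcumin and 10.2 ± 1.496 in AOM/DSS (-0.37, limma adjusted p = 0.180). Its partners Rhbdf1 and Rhbdf2 gave 0.45 for Rhbdf1 in curcumin minus control (adjusted p = 0.460) and 0.38 for Rhbdf2 in AOM/DSS minus control (adjusted p = 0.526). Of 12 genes that restrain the receptors none passed. The ubiquitin ligase Cbl averaged 4.86 ± 0.663 FPKM in curcumin, 7.81 ± 2.602 in AOM/DSS and 9.17 ± 2.76 in control, and gave -0.55 for curcumin minus AOM/DSS (adjusted p = 0.299) and -0.75 for curcumin minus control (adjusted p = 0.216), while its relative Cblb gave -0.35 for AOM/DSS minus control (adjusted p = 0.336). Of 22 signal transducers none passed either, with the adapter Gab1 at -0.46 for AOM/DSS minus control (adjusted p = 0.0966), the phosphatase Ptpn11 at -0.34 for curcumin minus AOM/DSS (adjusted p = 0.126) and the PI3K subunit Pik3r1 at -0.48 for curcumin minus control (adjusted p = 0.202).

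Among 16 genes that ERK signalling is known to induce or that feed back on it, 14 were tested and 1 passed. That was for AOM/DSS minus control, where 1.27% of all genes passed. Phlda1 rose in AOM/DSS, with 22.0, 17.3, 14.9 and 24.996 FPKM in AOM/DSS replicates 0 to 3, against 11.5, 7.66, 10.025 and 10.1 FPKM in control (0.93 ± 0.20, SE, limma adjusted p = 0.0486). Its groups did not overlap, but the call was lost in 17 of 25 alternatives, with voom among them, and the adjusted p ran from 0.0314 to 0.591. With 1 library left out it held only without AOM/DSS replicate 2 or curcumin replicate 0, and was highest, 0.137, without control replicate 3. Etv5, a transcription factor of the ETS family, averaged 3.98 ± 1.33 FPKM in curcumin and 8.42 ± 6.42 in AOM/DSS (-0.72, limma adjusted p = 0.419). Plaur, the urokinase receptor, averaged 6.58 ± 3.8996 FPKM in curcumin, 3.77 ± 0.910 in AOM/DSS and 1.67 ± 0.821 in control. Curcumin and AOM/DSS were each above control without overlap (1.43 and 0.86, limma adjusted p = 0.0795 and 0.203). Between curcumin and AOM/DSS the groups overlapped (0.57, limma adjusted p = 0.401). The median difference of the 14 genes was -0.27 for curcumin minus AOM/DSS, 0.29 for AOM/DSS minus control and 0.01 for curcumin minus control.

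Of 12 immediate early genes, which answer growth factors and also handling and stress, 11 were tested and 1 passed. That was for curcumin minus AOM/DSS, where 1.08% of all genes passed. Nr4a1, a nuclear receptor, fell in curcumin, with 2.03, 2.23, 1.30 and 1.41 FPKM in curcumin replicates 0 to 3, against 4.81, 6.42, 7.89 and 2.81 FPKM in AOM/DSS (-1.19 ± 0.24, SE, limma adjusted p = 0.0317), without overlap. The call was lost in 11 of 24 alternatives, and the adjusted p ran from 0.00815 to 0.384. It was lost without any one of curcumin replicates 0 to 3 or AOM/DSS replicates 0 to 2, with the highest adjusted p of these, 0.110, without curcumin replicate 2. For AOM/DSS minus control Nr4a1 gave 1.06 (adjusted p = 0.0517). The other 10 did not pass in any comparison. Fosb gave 1.36 for AOM/DSS minus control (adjusted p = 0.225), and Dusp1, a phosphatase that acts on MAP kinases, gave -0.48 for curcumin minus control (adjusted p = 0.647). The median of the 11 genes was -0.97 for curcumin minus AOM/DSS, 0.65 for AOM/DSS minus control and -0.23 for curcumin minus control. Their summed level was 435, 334, 221 and 237 FPKM in curcumin replicates 0 to 3, 480, 692, 811 and 303 FPKM in AOM/DSS and 358, 329, 342 and 339 FPKM in control. AOM/DSS replicate 2 thus had the highest immediate early sum as well as the highest Hbegf and Areg. AOM/DSS replicate 3 had the lowest sum of its group, below all control libraries. It also had the lowest Hbegf of its group, 10.996 FPKM, a value above all curcumin and control libraries. The part of handling in these values was not tested.

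**Figure D4:**
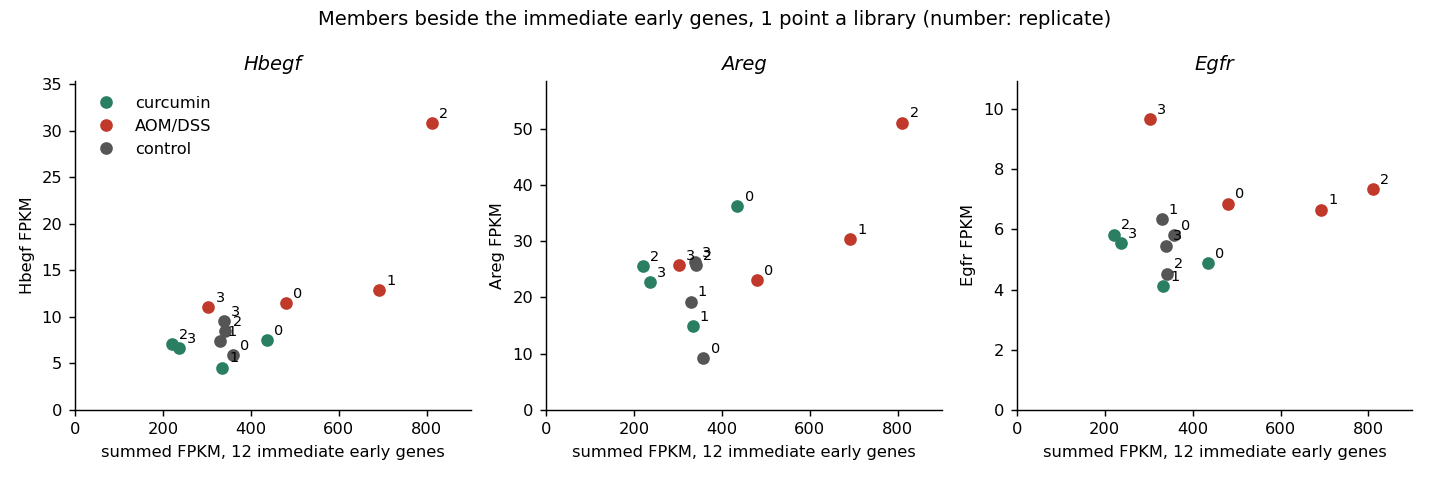
FPKM of Hbegf, Areg and Egfr, 1 panel each (vertical), against the summed FPKM of 12 immediate early genes (horizontal), 1 point a library, numbered by replicate, with curcumin, AOM/DSS and control in separate colours. AOM/DSS replicate 2, at a sum of 811 FPKM, has the highest Hbegf, 30.8 FPKM, and AOM/DSS replicate 3 lies at 303 FPKM.

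**Figure D5:**
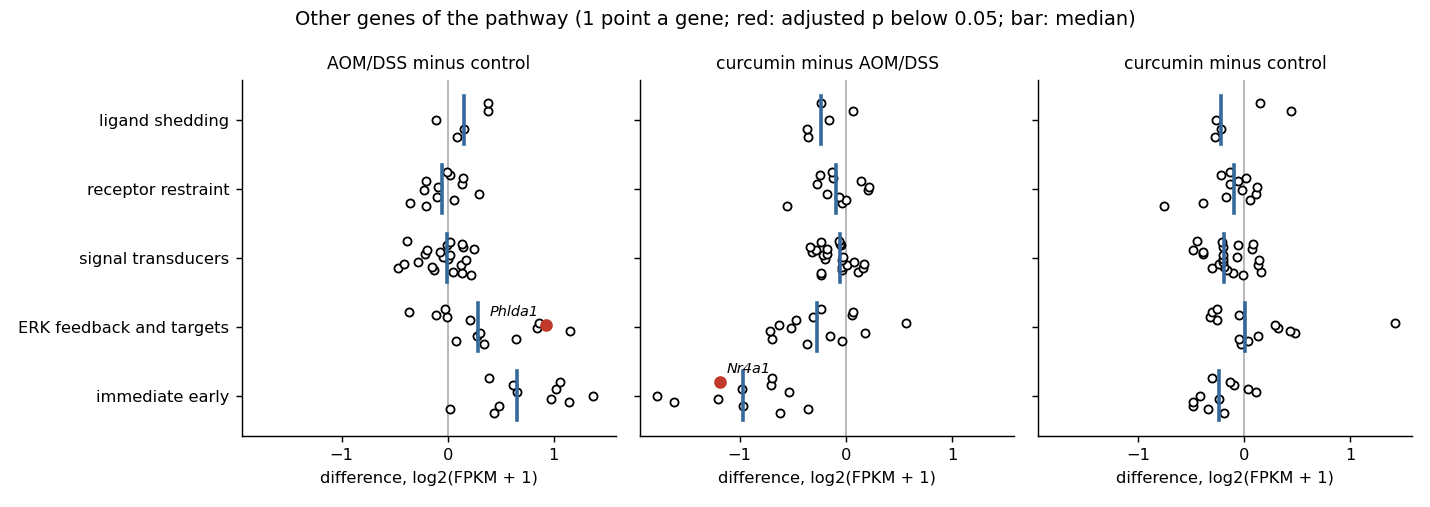
Differences on the log2(FPKM + 1) scale of the tested genes for ligand shedding, receptor restraint, signal transduction, ERK feedback and the immediate early response, 1 point a gene and 1 row a list, with 1 panel for each comparison; red points have an adjusted p below 0.05 and bars mark the median of the list. All 11 immediate early genes lie left of 0 in curcumin minus AOM/DSS and right of 0 in AOM/DSS minus control, with Btg2 at only 0.025 in the latter. Of all genes tested, 49.1% were higher in curcumin minus AOM/DSS and 52.8% in AOM/DSS minus control. These panels share the AOM/DSS libraries and are not independent of each other, and 1 red point stands in each of them.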

How the data were processed

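Total RNA of 12 libraries, 3 groups of 4, was sequenced by the submitters, and groups and replicate numbers were taken from the labels. Per the submitters' processing notes the build was mm9 and the tools were featureCounts 1.5.1 and Picard, with Bowtie2 2.2.6, TopHat2 2.1.1, R 3.4.0 and DESeq2 1.14.1, whose roles are not stated. The authors deposited 1 column of FPKM per library, and the strand setting and gene annotation are not given in the sources used here. For 100% of the 19233 genes above 0, a step was found of which the FPKM values were whole multiples, within a tolerance of 0.001. This gave back reads per gene. A gene above 0 in a single library meets this whatever its value, so the 100% was partly fixed in advance and is no check of the reads.

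From the FPKM, log2(FPKM + 1) was tested in R 4.3.3 by limma 3.58.1 (eBayes, trend on), all 12 libraries in 1 model (9 residual degrees of freedom), genes at 1 FPKM or more in at least 4 libraries (12052 genes, 8 of the 10 family members) and Benjamini-Hochberg adjustment, and limma voom was run on the recovered reads. Alternatives changed the pseudocount, filter, scaling, trend, replicate block, libraries entered and GC group of the libraries. GC-rich libraries are those whose deviations from the mean library correlated positively with the GC content of genes. GC content and exon overlap come from GENCODE M21 and gene neighbours and promoter windows from RefSeq, both later than mm9, matched by symbol. The genes, the lists and the alternatives were chosen with earlier results of these data known. All 10 family members are given, and of each pathway list the genes past the threshold or otherwise the tested gene with the largest difference, and per member the most similar genes over the 12 libraries.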

Additional observations from a re-analysis of the deposited data

Results flagged for a closer look

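In AOM/DSS, Hbegf was 30.8 FPKM in replicate 2, far above the other 3 libraries of the group, with a gap to the nearest of 0.906 of the range of the group. In curcumin, Tgfa was 9.32 FPKM in replicate 1, below the other 3, with a gap of 0.844 of the range. A gap this large arises by chance in about 1 in 20 groups, and 30 groups of 4 libraries were checked.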

How the results depend on the processing

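The family members gave 24 differences, 8 genes in 3 comparisons, and 15 of them kept their direction under every alternative run. The counts over all genes moved. For AOM/DSS minus control the count was 153, and it was 82 with the replicate block, 54 with only the groups compared, 238 with the GC group as a covariate, 7 in the GC-rich and 4 in the AT-rich libraries alone, and 53 (without control replicate 3) to 201 (without AOM/DSS replicate 2) with 1 library left out. For curcumin minus AOM/DSS it was 130, and 86, 85, 272, 8 and 1 under the same settings, and 48 (without curcumin replicate 2) to 149 (without AOM/DSS replicate 1) with 1 left out. For curcumin minus control it was 17, and 11 at a pseudocount of 0.1, 7 with no filter, 2 with the replicate block, 40 with the GC group covariate, 0 in the GC-rich and 0 in the AT-rich libraries alone, and 4 (without control replicate 0 or curcumin replicate 0) to 35 (without AOM/DSS replicate 1) with 1 left out. Its split of 11 higher and 6 lower was 7 and 6 at a common sum and 12 and 11 after quantile scaling. Of the family members 1 passed in 1 setting: Hbegf, curcumin minus AOM/DSS, with the GC group covariate (-1.13, limma adjusted p = 0.0374, 0.0374 to 0.392 over alternatives).

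Differences near 0 changed sign, and the cause was not tested. Btc was -0.29 for AOM/DSS minus control in the GC-rich libraries, -0.044 for curcumin minus AOM/DSS at a common sum and -0.0021 in the AT-rich libraries, and -0.28 for curcumin minus control in the GC-rich libraries. Erbb2, curcumin minus AOM/DSS, was -0.039 at a common sum, -0.019 after quantile scaling and -0.14 in the AT-rich libraries. For curcumin minus control, Egf was -0.34 in the GC-rich libraries, Tgfa 0.014 with the GC covariate and 0.0036 in the AT-rich libraries, and Egfr 0.063 in the AT-rich libraries. Nrg4 was 0.028 for curcumin minus AOM/DSS in the AT-rich libraries. With 1 library left out, AOM/DSS minus control ran from -0.25 to 0.042 for Egf, -0.044 to 0.14 for Tgfa, -0.063 to 0.20 for Btc and -0.019 to 0.14 for Nrg4. Curcumin minus AOM/DSS ran from -0.12 to 0.14 for Btc, -0.087 to 0.12 for Erbb2 and -0.068 to 0.053 for Nrg4, and curcumin minus control from -0.097 to 0.052 for Tgfa, -0.027 to 0.14 for Btc and -0.032 to 0.13 for Nrg4. Libraries with the same replicate number correlated by -0.333 to 0.456 over 12 pairs, 6 of them over 0.1. Pairs with different numbers ran from -0.458 to 0.499. The numbers were not taken as pairing, though these ranges cannot tell whether a batch was shared by number. Ereg and Epgn, at few reads, have only the fit without filter.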
